A study of Gallus gallus with 60 samples.

Results

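The enzymes that make and break down dopamine, noradrenaline and serotonin were followed in the cerebrum of laying hens of the white layer line Lohmann Selected Leghorn (LSL) and the brown layer line Lohmann Brown (LB). The genes are TH, TPH2, DDC, MAOA, MAOB and COMTD1, and every probe set that the probe table of the array gives to 1 of these 6 symbols was taken, which gave 14 of 38535 probe sets. A probe set is a group of short DNA probes on the array that reads 1 stretch of transcript. TH, TPH2 and COMTD1 had 1 probe set each, MAOA and MAOB had 3 each, and DDC had 5.

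Total RNA of the posterior cerebrum, taken without the meninges, was hybridized to 1 Affymetrix chicken array per hen. The 60 hens were 65 to 67 weeks old and lived in a small group housing system in compartments of either 36 or 54 hens. In compartments of 36 lived 13 LSL and 15 LB hens, and in compartments of 54 lived 15 LSL and 17 LB hens. The right side was sampled in 54 hens and the left side in 6, of which 2 were LSL and 4 LB. Each compartment held 1 line, and neither the compartment nor the tier of a hen is given in the sources used here, so hens were treated as independent. At sampling the authors also told stressed from unstressed layers by handling behaviour, plumage and skin lesions. The labels do not give this stress status, so it could not be entered in any comparison.

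The authors deposited log2 expression values, with each probe set centred on its median. The median was 0 in hens 1 to 30 and separately in hens 31 to 60, so the hens form a pair of array sets with zero points of their own. The first set held 15 hens of each line, and the second held 13 LSL and 17 LB hens, with all left sides in it. A value of -1 therefore lies 2-fold below the median of its own set, and no absolute level of any enzyme, no order of levels among them and no presence of a cell type could be read from these values. All differences below were fitted with the array set as a block. The actin probe sets at the 5' and 3' ends of the transcript, a measure of RNA integrity, differed by -1.33 to 0.24 in 57 hens and by -1.69, -2.88 and -2.89 in LB hens 7, 8 and 16. These are differences of centred values (5' minus 3') and not the gap between the ends itself.

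Tyrosine hydroxylase (TH) and tryptophan hydroxylase 2 (TPH2) carry out the first and rate-limiting steps of catecholamine and neuronal serotonin synthesis. Both need the cofactor tetrahydrobiopterin, and DOPA decarboxylase (DDC) then makes dopamine and serotonin from their products. The monoamine oxidases A and B (MAOA, MAOB), on the outer membrane of mitochondria, oxidize the amines to aldehydes. In mammals and birds the cell bodies of dopamine, noradrenaline and serotonin neurons lie mainly in the midbrain and hindbrain and send axons to the forebrain, so the cerebrum holds their endings rather than most of their transcripts. COMTD1 codes for a protein of the methyltransferase type, and a frameshift of this gene in the chicken has been associated with weaker pheomelanin pigmentation of the plumage.

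The line comparison asked whether these enzymes differed between white and brown layers. Of the 14 probe sets, 2 were lower in LSL than in LB and none was higher at an adjusted p under 0.05 (limma, Benjamini-Hochberg over all 38535 probe sets). These were COMTD1, by more than 2-fold, and TPH2, by 1.2-fold. On the whole array 18.5% of probe sets passed in this comparison, 8.22% higher and 10.3% lower in LSL, so that the share of enzyme probe sets called was near that of the array. At an unadjusted p under 0.05, 4 of the 14 differed, beside 28.7% of the array. The enzymes were chosen with earlier results of these hens known, and COMTD1 stood on a list of 2-fold differences drawn from the same hens, so its difference is not independent evidence.

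**Figure D1:**
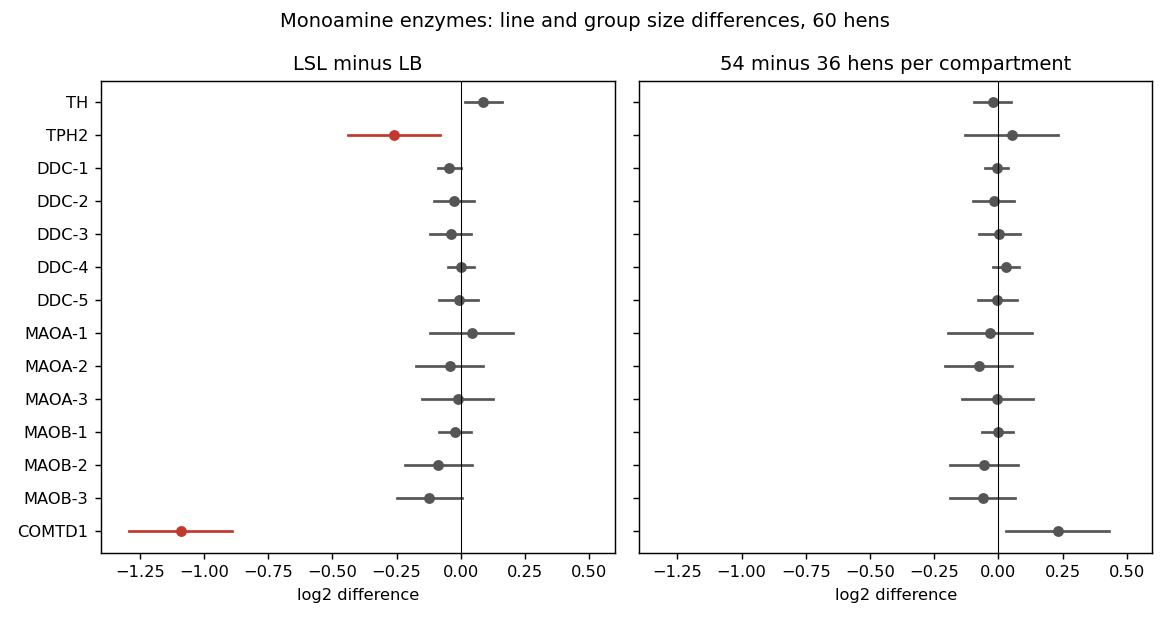
Log2 differences of the 14 probe sets of monoamine enzymes between the lines (left panel, LSL minus LB) and between group sizes (right panel, 54 minus 36 hens per compartment), as points with 95% confidence intervals from limma over 60 hens and in red where the adjusted p was under 0.05. COMTD1 and TPH2 lie below 0 in the line panel, and no probe set passed in the group size panel.

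The serotonin enzyme TPH2 lay between -1.21 and 0.74 in the 28 LSL hens, with a median of -0.19. In the 32 LB hens it lay between -0.57 and 0.69, with a median of 0.03. The lines overlapped over most of this range, with 19 of 28 LSL hens below the median of the LB hens of their own array set and 4 below every LB hen of it. The difference was -0.26 ± 0.09 (SE, log2, LSL minus LB, 95% interval -0.44 to -0.08, adjusted p = 0.0330, limma). In the arrays of hens 1 to 30 it was -0.21 (adjusted p = 0.403) and in those of hens 31 to 60 it was -0.33 (adjusted p = 0.0540), and the difference of the line effect between sets was -0.13 ± 0.18 (adjusted p = 0.902).

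The TPH2 call stood close to its threshold. It was lost with the right side alone (-0.20, adjusted p = 0.104), without LB hens 7, 8 and 16 (-0.25, adjusted p = 0.0526) and with the actin difference as a covariate (-0.24, adjusted p = 0.0541). With array weights the adjusted p was 0.00930 and the difference -0.28. TPH2 in the 6 left sides ranged from -0.86 to 0.67, with a mean of -0.16, against a mean of 0.02 in the right sides of the same set.

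The dopamine enzyme TH had a smaller difference of the opposite sign. It lay between -0.23 and 0.36 in LSL, with a median of 0.04, and between -0.40 and 0.30 in LB, with a median of -0.03. Of the 28 LSL hens, 21 lay above the median of the LB hens of their set, and the lines overlapped. The difference of 0.09 ± 0.04 (SE, 95% interval 0.02 to 0.16) did not pass (adjusted p = 0.0804, limma, unadjusted p = 0.0172). It passed with the median of each array subtracted, where it was 0.10 (adjusted p = 0.0470).

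**Figure D2:**
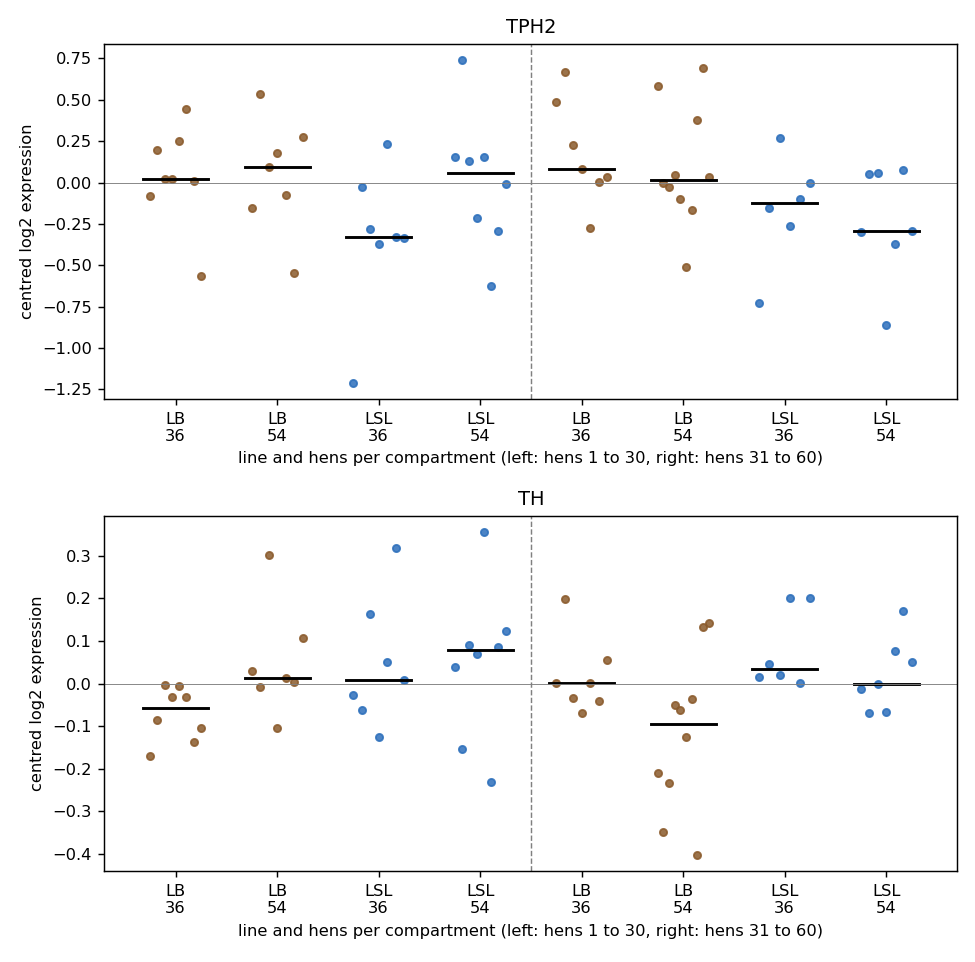
Centred log2 values of TPH2 (top) and TH (bottom) in each of 60 hens by line (brown LB, blue LSL), hens per compartment and array set (separated by the dashed line), with bars at the group medians. The lines overlap in every group of both genes, with the median of LSL hens at -0.19 and of LB hens at 0.03 for TPH2.

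The 5 probe sets of DDC, which serves both pathways, differed little between the lines. The log2 differences ran from -0.05 to 0.00. The largest in size was that of DDC-1, at -0.05 ± 0.02 (SE, 95% interval -0.09 to -0.0013, adjusted p = 0.159, limma, unadjusted p = 0.0439). Over the 5 probe sets the intervals stayed between -0.12 and 0.07. DDC-1 and DDC-4 also varied little between hens of one group. Their SDs within groups were 0.080 and 0.093, lower than those of all but 1.27% and 3.92% of the array. DDC-2 (0.139), DDC-3 (0.149) and DDC-5 (0.148) lay near the median SD within groups of all probe sets, which was 0.145. Centred values do not show whether these probe sets read DDC transcript above background. The narrow intervals therefore hold for the probe sets and not necessarily for the transcript.

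The oxidases did not pass in the line comparison. MAOA, which prefers serotonin and noradrenaline as substrates in mammals, had differences of 0.04 ± 0.08, -0.04 ± 0.07 and -0.01 ± 0.07 (SE) in its 3 probe sets. MAOB, which in mammals is found mainly in glia and serotonin neurons, had differences of -0.02 ± 0.03, -0.09 ± 0.07 and -0.12 ± 0.06 (SE). The last, MAOB-3, ranged from -0.46 to 0.64 in LSL and from -0.57 to 0.66 in LB, and had an adjusted p of 0.189 over all hens. With the right side alone it passed, at -0.18 (adjusted p = 0.0287).

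One MAOA probe set, MAOA-2, had opposite signs in the array sets. In hens 1 to 30 its mean was 0.07 in LSL and -0.07 in LB, a fitted difference of 0.15 (adjusted p = 0.390, limma). In hens 31 to 60 the means were -0.14 and 0.09, a difference of -0.23 that passed within this set (adjusted p = 0.0256). The difference between the sets was -0.38 ± 0.12 (SE, unadjusted p = 0.00296), which did not pass over all probe sets (adjusted p = 0.574), as was the case for all 14 enzyme probe sets (0 of 14, beside 0.013% of the array, and 1 of 14 with an unadjusted p under 0.05, beside 7.64% of the array). LB hens 7, 8 and 16, which belong to the first set, had MAOA-2 values of -0.55, -0.31 and -0.52. Without these 3 hens the difference between the sets was -0.28.

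COMTD1 had the widest line difference of the 14 probe sets. In LSL it lay between -1.74 and 0.03, with a median of -0.89, and in LB between -0.03 and 0.76, with a median of 0.20. In hens 31 to 60 every LSL hen lay below every LB hen, and in hens 1 to 30 this held for 14 of 15 LSL hens. The share of the array with such a separation is not given here, so these counts only describe COMTD1. The difference was -1.09 ± 0.10 (SE, 95% interval -1.29 to -0.89, adjusted p = 1.5e-13, limma), so that COMTD1 was 2.13-fold lower in LSL. Such a difference of at least 2-fold that passed was found for 0.392% of the array. It was -1.2 in hens 1 to 30 and -1.0 in hens 31 to 60, and passed in every alternative run. From bulk tissue, fewer cells that express a gene and less RNA per cell cannot be told apart, and with 1 probe set for COMTD1 no other stretch of its transcript could be compared.

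**Figure D3:**
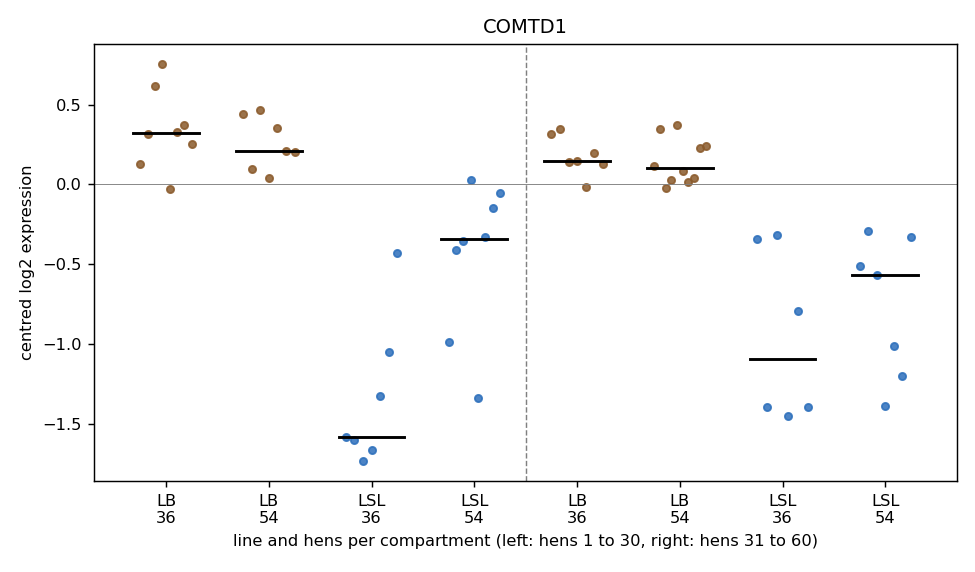
Centred log2 values of COMTD1 in each of 60 hens by line (brown LB, blue LSL), hens per compartment and array set (separated by the dashed line), with bars at the group medians. LB hens lie between -0.03 and 0.76, while LSL hens are spread from -1.74 to 0.03.

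The LSL hens differed far more among themselves in COMTD1 than the LB hens did. Within line, group size and array set, its SD was 0.479 in LSL and 0.177 in LB, a ratio of 2.71. The test compared the mean absolute deviation from the group median, not the SD. This deviation was 0.359 in LSL and 0.128 in LB (permutation test of hens within group size and array set, 100000 permutations, two-sided p = 0.00018, adjusted p = 0.00252 over the 14 probe sets). This test was chosen after the values had been seen. The other 13 probe sets had SD ratios between 0.873 and 1.27, and the test of their deviations gave an adjusted p of 0.997 for each. The median SD ratio of the array was 1.01, and 49 probe sets (0.130% of the array) had a larger one than COMTD1. The SD ratio was 3.61 in hens 31 to 60 and 2.19 in hens 1 to 30. The same permutation test of the deviations gave p = 0.00012 and p = 0.123 in these sets, without adjustment. The stress status of the hens is unknown, and its part in this spread was not tested.

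The lowest COMTD1 values were found in LSL hens. A value below -1 was found in 9 of 13 LSL hens kept in groups of 36 and in 4 of 15 kept in groups of 54, and in 0 of the 32 LB hens. The contrast between group sizes lay in hens 1 to 30, with 6 of 7 and 1 of 8 LSL hens, while in hens 31 to 60 there were 3 of 6 and 3 of 7. The median of LSL hens in groups of 36 was -1.58 in the first set and -1.10 in the second, and in groups of 54 it was -0.34 and -0.57. The level of -1 was chosen after the values had been seen, and these counts were not tested.

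Fitted over both lines, COMTD1 was 0.23 ± 0.10 (SE, log2) higher in compartments of 54 than of 36, which did not pass (adjusted p = 0.402, limma, unadjusted p = 0.0245). The size difference was 0.57 in LSL (adjusted p = 0.341) and -0.06 in LB (adjusted p = 0.742). The line difference was -1.43 in compartments of 36 and -0.81 in those of 54, and passed in both. The test of this change gave 0.63 ± 0.18 (SE, unadjusted p = 0.00106), which did not pass over all probe sets (adjusted p = 0.236). Over 6 alternatives the adjusted p lay between 0.231 and 0.435. The compartments of the hens are unknown, so differences between single compartments and between group sizes cannot be told apart.

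None of the 14 probe sets passed in the group size comparison, beside 0.0104% of the array (4 probe sets), and 1 of the 14 had an unadjusted p under 0.05, beside 10.3% of the array. The log2 differences of the other 13 lay between -0.08 for MAOA-2 and 0.05 for TPH2. In the test of whether the line difference changed with group size, 0 of 14 passed (0% of the array), and COMTD1 and MAOB-1 had an unadjusted p under 0.05, beside 12.9% of the array. For MAOB-1 this change was -0.15 ± 0.06 (SE, unadjusted p = 0.0171, adjusted p = 0.316, limma). Between left and right sides, tested within hens 31 to 60, 0 of 14 probe sets passed (0% of the array) and 0 had an unadjusted p under 0.05, beside 7.72% of the array. The widest side difference was that of TPH2, at -0.24 ± 0.14 (SE, left minus right, 6 against 24 hens, adjusted p = 0.735, limma).

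The enzymes were then compared between hens of one group. After removal of the mean of each line, group size and array set, 3 of the 91 pairs of probe sets (3.3%) had a Pearson r that passed (permutation test within groups, 100000 permutations, two-sided, Benjamini-Hochberg over 91 pairs), and 10 had an unadjusted p under 0.05. All 3 pairs that passed joined probe sets of one gene. A share of passing pairs over the whole array is not given here. MAOA-2 and MAOA-3, which carry the same source sequence name, had r = 0.69 and rho = 0.69 (n = 60, permutation, adjusted p = 0.000455 and 0.00091). MAOB-2 and MAOB-3, which also share a source sequence name, had r = 0.67 and rho = 0.57 (n = 60, permutation, adjusted p = 0.000455 and 0.00227). Without the 2 hens farthest from the median these were 0.65 and 0.61. The unadjusted p of both, 1e-05, is the smallest these permutations can give. Of all other probe sets, 0.0026% were at least as far from 0 with MAOA-2 and 0.0104% with MAOA-3. For the MAOB pair this share was 0% with either probe set.

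MAOA-1 and MAOA-3 come from different source sequences and had r = 0.45 (n = 60, permutation, adjusted p = 0.0285). By rank it was 0.42 and did not pass (adjusted p = 0.0646), and without the 2 hens farthest from the median r was 0.39. Of all other probe sets, 2.83% had an r at least as far from 0 with MAOA-1 and 4.72% with MAOA-3. The 10 pairs of DDC probe sets had r between -0.22 and 0.23, and none passed. DDC-1 and DDC-2, which share a source sequence name, had r = 0.09, and DDC-4 and DDC-5 had r = 0.13. The 5 probe sets of DDC therefore did not rank the hens alike, and their r with other genes need not describe the DDC transcript.

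**Figure D4:**
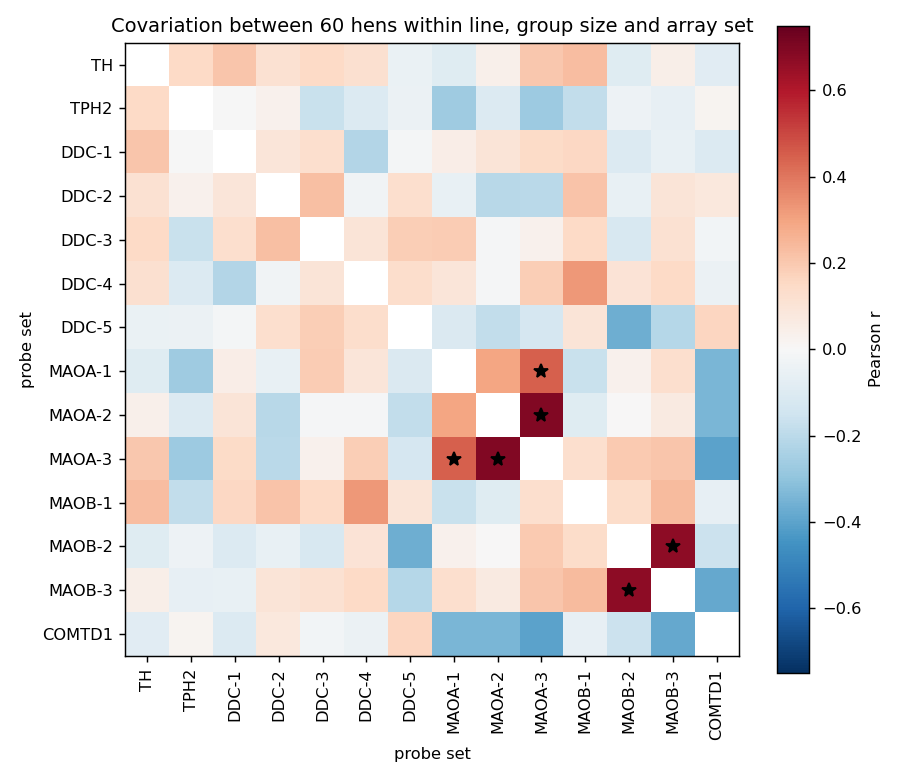
Pearson r between the 14 probe sets over 60 hens after the means of line, group size and array set were removed, from blue (negative) to red (positive), with stars at the 3 pairs whose adjusted p was under 0.05. The starred pairs lie within MAOA and within MAOB, and the strip of COMTD1 with MAOA is blue, at -0.34 to -0.40.

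No pair of different genes passed (0 of 75 by r and by rho, 6 with an unadjusted p under 0.05 for r). TH and the DDC probe sets had r between -0.05 and 0.21, TPH2 and DDC between -0.17 and 0.03, and MAOA and MAOB, which lie next to each other in the genome, between -0.17 and 0.21. Among the lowest values were those of COMTD1 with MAOA-1 (-0.35), MAOA-2 (-0.34), MAOA-3 (-0.40) and MAOB-3 (-0.38), with adjusted p between 0.0657 and 0.239, and that of DDC-5 with MAOB-2 (-0.37, adjusted p = 0.0601, permutation). Of all other probe sets, 7.49% were at least as far from 0 with MAOA-1, 10.4% with MAOA-2, 7.52% with MAOA-3 and 0.241% with MAOB-3. With COMTD1 these shares were 1.07%, 1.11%, 0.254% and 0.407%. For the last pair they were 5.16% with DDC-5 and 1.20% with MAOB-2. The values of COMTD1 with MAOA did not keep their sign in every subset. For MAOA-3, r was -0.53 in LSL and -0.17 in LB, and -0.52 in hens 1 to 30 and -0.21 in hens 31 to 60. For MAOA-2 it was -0.57 in LSL and 0.15 in LB, and for MAOA-1 it was -0.62 in hens 1 to 30 and 0.04 in hens 31 to 60. For MAOB-3 with COMTD1, r was -0.46 in LSL, -0.33 in LB, -0.38 in hens 1 to 30 and -0.39 in hens 31 to 60. With the actin difference removed, the pairs of COMTD1 with MAOA-2 (-0.43), MAOA-3 (-0.50) and MAOB-3 (-0.38) passed (permutation, adjusted p = 0.0357, 0.00591 and 0.0392), as did DDC-5 with MAOB-2 (-0.36, adjusted p = 0.0357). With the right side alone MAOA-3 with COMTD1 (-0.47) and DDC-5 with MAOB-2 (-0.41) passed (permutation, adjusted p = 0.0482 and 0.0461). In hens 1 to 30 MAOA-1 with COMTD1 (-0.62) and DDC-5 with MAOB-2 (-0.54) passed (permutation, adjusted p = 0.0106 and 0.0312). In hens 31 to 60 alone no pair passed, within or between genes. There r was 0.60 for MAOA-2 with MAOA-3 (permutation, adjusted p = 0.0837) and 0.60 for MAOB-2 with MAOB-3 (permutation, adjusted p = 0.0846). For MAOA-1 with MAOA-3 it was 0.55 (permutation, adjusted p = 0.121).

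The probe sets MAOA-1 and MAOA-3 also varied with markers of other cells of the brain. Each probe set was set against the mean of 11 lists of cell type and region markers and against the actin difference, and 4 of these 168 relations passed and 23 had an unadjusted p under 0.05. These relations were chosen after values had been seen, and the share of the array that varied as strongly with each list is not given here. MAOA-3 varied with the microglia list (CSF1R, C1QA and others) at r = 0.63 and rho = 0.59 (n = 60, permutation, adjusted p = 0.00168 and 0.00084), and without the 2 farthest hens r was 0.57. The relation was 0.73 in LSL and 0.49 in LB, and 0.70 and 0.47 in the array sets. MAOA-1 had r = 0.45 and rho = 0.49 with the same list (permutation, adjusted p = 0.0231 and 0.0063), and without the 2 farthest hens 0.43. MAOA-2 did not pass with this list (r = 0.44, rho = 0.36, permutation, adjusted p = 0.0624 and 0.097).

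With the list of oligodendrocytes, the myelin-forming cells, MAOA-3 had r = 0.54 and rho = 0.54 (n = 60, permutation, adjusted p = 0.0151 and 0.00112), 0.58 in hens 1 to 30 and 0.39 in hens 31 to 60. Its r was 0.53 with CNP, 0.60, 0.55 and -0.15 with the 3 probe sets of MBP, and 0.17 with MOBP, all genes of myelin. With SOX10, a transcription factor of these cells, it was 0.36 and 0.47. MAOA-1 and MAOA-2 did not pass with the oligodendrocyte list (r = 0.31 and 0.26, permutation, adjusted p = 0.259 and 0.408). MAOA-2 followed the actin difference at r = 0.47 and rho = 0.59 (n = 60, permutation, adjusted p = 0.0151 and 0.00084), with 0.57 in hens 1 to 30 and 0.09 in hens 31 to 60. MAOA-3, which varied with the glial lists, had r = 0.47 and rho = 0.50 with the actin difference, and passed by rank alone (n = 60, permutation, adjusted p = 0.0624 and 0.0126). By rank alone MAOA-1 also passed with the astrocyte list (r = 0.44, rho = 0.49, permutation, adjusted p = 0.0624 and 0.00874) and MAOA-3 with the list of endothelium and blood (r = 0.39, rho = 0.42, permutation, adjusted p = 0.0741 and 0.0490). No relation of TH, TPH2, DDC, MAOB or COMTD1 with a marker list passed. The part of glial cells or of RNA integrity in the spread of MAOA was not tested.

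Between the lines themselves, 0 of 11 probe sets of the microglia list, 1 of 7 of the oligodendrocyte list (MBP, 0.18 higher in LSL) and 0 of 6 of the astrocyte list passed, beside 18.5% of the array. In the neuron list 2 of 15 were higher in LSL, in the list of endothelium and blood 2 were higher and 2 lower of 12, and in that of choroid plexus and meninges 1 of 14 was higher. In the lists of amine neurons, 1 of 8 probe sets passed for midbrain dopamine neurons (SLC18A2) and 0 of 3 for noradrenaline neurons. For raphe serotonin neurons 2 of 8 passed (SLC18A2 and FEV, the serotonin neuron transcription factor, 0.09 lower in LSL). The called probe set of SLC18A2, lower in LSL, is the same in the dopamine and the serotonin list. Its other probe set had 0.01 (adjusted p = 0.849, limma). The median differences were -0.03 for the dopamine, -0.01 for the serotonin and 0.02 for the noradrenaline list. Among markers of regions, 0 of 4 probe sets of the pallium list passed, and in the striatum list PENK was 0.58 higher and the dopamine receptor DRD1 0.31 lower in LSL in 1 of its probe sets. The part of cell content or dissection in the TPH2 difference was not tested.

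The genes that varied most like each enzyme between hens are given as a description. They were the 3 annotated probe sets with the highest r at the most variable probe set of each enzyme. For MAOA-1 these were TMEM88B (0.86), NDRG1 (0.80), whose loss causes a demyelinating neuropathy in humans, and LOC769726 (0.77), and 1% of the array lay above 0.51. For TPH2 they were the microtubule severing protein FIGN (0.70), the microtubule end binding protein MAPRE2 (0.70) and the kinase MAPK11 (0.69), above a 99th percentile of 0.46. TH was most like SLITRK6 (0.56), the potassium channel partner KCNIP2 (0.54) and the copper transporter ATP7B (0.54). For MAOB-2 the values reached 0.48 with ARHGAP42, and for DDC-3 0.54 with HOXD4. The 99th percentile of the array was 0.38 for TH, 0.32 for MAOB-2, 0.38 for DDC-3 and 0.30 for COMTD1, lower than for MAOA-1 and TPH2. All these genes were picked as the highest of the annotated probe sets, and whether any r exceeds what such a choice gives was not tested. COMTD1 was most like LOC423967 (0.48), which had r = 0.64 in LSL and 0.14 in LB and was itself 0.25 lower in LSL (adjusted p = 0.000249, limma). It was nearly as much like the fatty acid carrier CD36 (0.47), whose line difference was 0.0049, and the transcription factor E2F6 (0.46), which was 0.08 higher in LSL (adjusted p = 0.0316, limma).

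No measured neighbour of COMTD1 in the genome passed as lower in LSL. Of its 6 protein-coding neighbours, 3 on each side in RefSeq order, 3 were measured, and 1 of their 5 probe sets passed, beside 18.5% of the array. The mitochondrial channel VDAC2 was 0.14 higher in LSL in 1 probe set (adjusted p = 0.0365, limma) and 0.06 higher in its other (adjusted p = 0.268). SAMD8 (0.08) and ZNF503 (-0.05 and -0.04) did not pass. Around TPH2, 2 of 17 probe sets passed, both higher in LSL and both of TMEM19, whose other probe sets had -0.01, 0.02 and 0.09. Around TH, 2 of 9 passed, both lower in LSL, of CD81 (-0.20) and of the growth factor IGF2 (-0.10), while INS, the insulin gene beside TH, had 0.01. The other probe sets did not pass, at -0.04 for CD81 and at 0.04 and -0.01 for IGF2. Around MAOA 1 of 7 and around MAOB 1 of 9 probe sets passed. Both times this was the same probe set of EFHC2 (-0.11, adjusted p = 0.0153, limma), whose others had 0.03 and 0.01. Around DDC 0 of 5 passed. So few probe sets per gene do not allow their shares to be compared with that of the array.

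Other genes of monoamine pathways were read from 5 lists, of which 41 genes with 68 probe sets were measured. Of these 68, 8 were higher and 7 lower in LSL (22.1%, beside 18.5% of the array), from 12 genes, with a median difference of -0.01 as on the whole array (-0.01). None passed in the comparisons of group size and side or in the interaction tests. All p-values of this paragraph and the next are from limma, adjusted over the array. For tetrahydrobiopterin, 3 of 12 probe sets passed. QDPR, which regenerates the cofactor, was 0.25 ± 0.06 (SE) lower in LSL in 1 of 2 probe sets (adjusted p = 0.000389), with -0.14 in the other. SPR, the last enzyme of its synthesis, was 0.14 lower in LSL in 1 of 3, with 0.02 and -0.0039 in the others. PCBD1, which also takes part in recycling, was 0.20 higher.

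**Figure D5:**
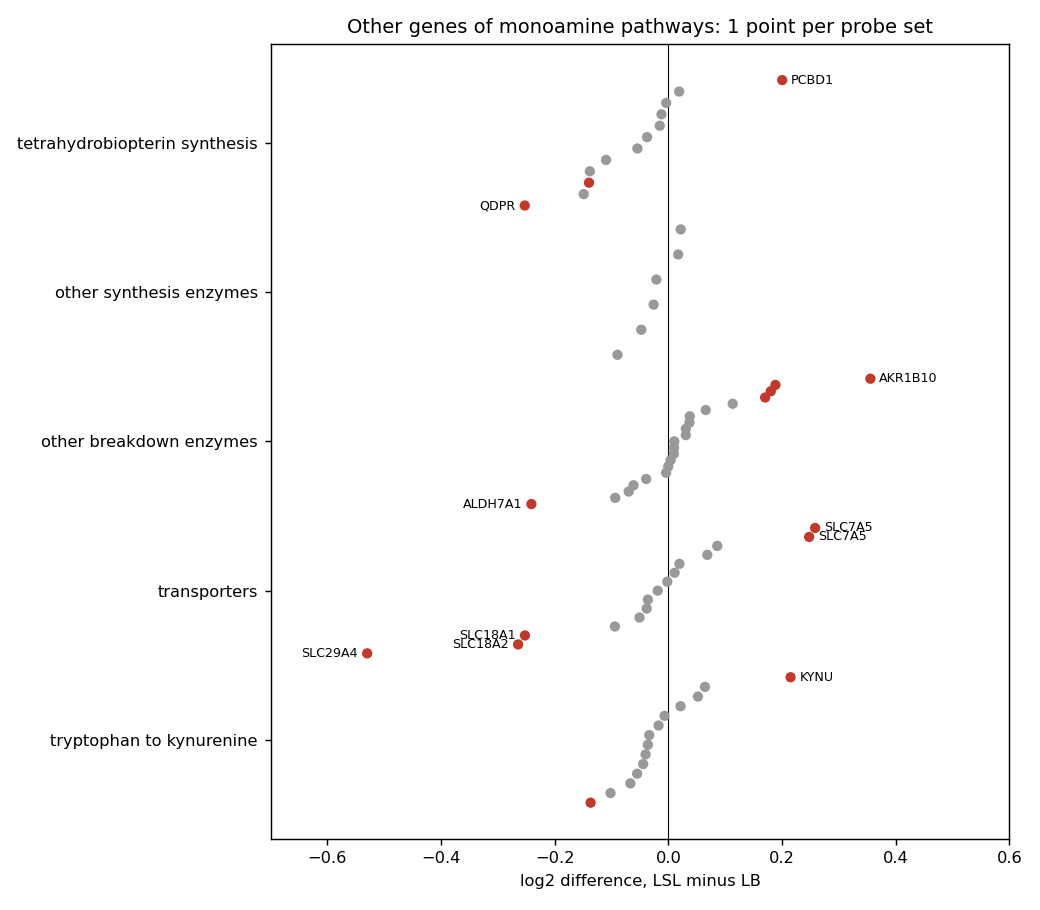
Log2 differences (LSL minus LB, horizontal axis) of 68 probe sets of 41 other genes of monoamine pathways, 1 point per probe set, grouped by list and ordered by value within a list, with red points for an adjusted p under 0.05 and names at called differences above 0.20 in size. Called points lie on both sides of 0 in all lists but that of the other synthesis enzymes, which holds none.

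Among transporters, 5 of 15 probe sets passed. SLC29A4, a low-affinity carrier of serotonin and dopamine, was -0.53 ± 0.06 (SE, adjusted p = 1.1e-09) in 1 probe set and 0.00 in its other. The vesicular transporters SLC18A2, which loads amines in neurons, and SLC18A1 were 0.26 and 0.25 lower in LSL in 1 of 2 probe sets each, beside 0.01 and -0.04 in the others. SLC7A5, which carries tryptophan and tyrosine into the brain, was 0.26 and 0.25 higher in 2 of its 4 probe sets. The others had 0.07 and -0.05 and did not pass. Of the enzymes that handle the aldehydes, the reductase AKR1B10 was 0.36 ± 0.06 (SE, adjusted p = 1.5e-05) higher in LSL, AKR1A1 was 0.19, 0.18 and 0.17 higher in 3 of 4 probe sets, and the dehydrogenase ALDH7A1 was 0.24 ± 0.03 (SE) lower (adjusted p = 1.9e-08). In the kynurenine pathway, which breaks down tryptophan, KYNU was 0.21 higher and TDO2, its first step in liver, 0.14 lower. None of the 6 probe sets of TPH1, DBH, AANAT, ASMT and HDC, further enzymes of amine and melatonin synthesis, passed, with differences from -0.09 to 0.02. The calls of PCBD1, KYNU, QDPR, SPR, TDO2 and SLC18A1 were lost in at least 1 fit of a single array set. With the right side alone PCBD1 (adjusted p = 0.0987) and KYNU (adjusted p = 0.103) did not pass either. In compartments of 36 alone PCBD1, SPR, KYNU and TDO2 did not pass (adjusted p = 0.264, 0.113, 0.575 and 0.736), with -0.04 for TDO2. In compartments of 54 alone QDPR (adjusted p = 0.0539) and PCBD1 (adjusted p = 0.170) did not. PCBD1 was also lost by the unequal variance test over all hens.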

How the data were processed

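The authors hybridized biotin-labelled cRNA of 60 hens and derived the deposited log2 values in GeneSpring GX by RMA, which corrects the background and normalizes quantiles, followed by median centring. The genome build is not given in the sources used here. Lines and sizes were taken from the labels. Symbols came from the probe table (27178 probe sets with 1 symbol, 177 with several, 11180 with none). RefSeq GRCg7b served for names and neighbours only.

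Differences were computed with limma 3.58.1 in R 4.3.3 (lmFit, eBayes without trend) with array set, line and group size as terms, over all 38535 probe sets, since centred values allow no filter on low expression. The number of arrays limits the precision. Correlations were computed in Python 3.11.15 with numpy 2.4.6. Scripts were tested on simulated data.

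All member probe sets are named, and of each pathway list up to 4 members with the largest line differences past the threshold. Some neighbours and cell markers were named after their values were seen. The members and lists were chosen with earlier results of these data known. The alternatives were other tests, weights and normalizations, no block, single sets, sizes, lines or sides, omission of LB hens 7, 8 and 16, and actin as a covariate.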

Additional observations from a re-analysis of the deposited data

How the results depend on the processing

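The count of enzyme probe sets that differed between the lines, 2 over all hens, was 1 in hens 1 to 30, 1 without LB hens 7, 8 and 16, 1 with the actin covariate, 1 in compartments of 36 and 1 in those of 54, each time because TPH2 no longer passed. With the median of each array subtracted it was 3, since TH passed as well. With the right side alone MAOB-3 passed in place of TPH2, and in hens 31 to 60 MAOA-2 did. COMTD1 passed in all 14 of its alternatives. The counts for group size, side and interactions, all 0, were 0 in every alternative. The count of covarying pairs, 3, was 5 with the right side alone, 0 in hens 31 to 60 and 8 with the actin difference removed. In hens 31 to 60, with fewer hens, the 3 pairs still had r of 0.60, 0.60 and 0.55. No paired analysis was possible because the hens are numbered once through the study, so that no number recurs in another group. On the whole array, the count of line differences, 7136, was 3322 in hens 1 to 30 and 3581 in compartments of 36. Both fits used fewer hens, and the part of hen number in these counts was not tested. The count of size differences, 4, ranged from 0 to 127, the latter in hens 31 to 60. That of changes of the line difference between sets, 5, was 0 to 2 in its 5 alternatives. The smaller ratio of COMTD1 spread in hens 1 to 30 and the fit without the array set block for the interaction with group size were alternatives chosen after seeing the data. The 65 to 67 week old hens of 1 farm, the unknown compartments and stress status of the hens, and the centring limit these results. The cause of the changes was not tested.

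The 912 alternative values held log2 differences and correlations, and also counts and SD ratios, which cannot change sign. Of the log2 differences, 69 had the opposite sign to the main value, from -0.083 to 0.15, and in none was either value past the threshold. No correlation that passed in the main run changed its sign. The line difference took the other sign with the right side alone for MAOA-3 (0.011), in hens 1 to 30 for MAOA-2 (0.15) and MAOA-3 (0.086), and in hens 31 to 60 for DDC-4 (-0.0028), DDC-5 (0.015) and MAOA-1 (-0.0086). It was also turned without LB hens 7, 8 and 16 for DDC-4 (-0.0024), with the actin covariate for DDC-4 (-0.00049), and in compartments of 36 for DDC-2 (0.037), DDC-3 (0.0039), DDC-4 (-0.0065) and MAOB-1 (0.053). Further sign changes were found in compartments of 54 for MAOA-1 (-0.032) and MAOA-3 (0.0063). The group size difference did so without the block for MAOA-3 (0.0023), by the methods' unpaired test for MAOA-3 (0.0022), and by the unequal variance test for MAOA-3 (0.0022). It was also turned with array weights for TPH2 (-0.012), DDC-3 (-0.0048), MAOA-3 (0.035) and MAOB-1 (0.0016), with quantile normalization for DDC-3 (-0.0027), DDC-5 (0.0095) and MAOA-3 (0.024), and with the right side alone for DDC-2 (0.010) and DDC-5 (0.013). Further sign changes were found in hens 1 to 30 for TH (0.060), DDC-1 (0.028), DDC-2 (0.099), DDC-5 (0.049) and MAOB-1 (0.0054), in hens 31 to 60 for TPH2 (-0.076), DDC-3 (-0.028), MAOA-2 (0.015), MAOA-3 (0.034) and MAOB-2 (0.0014), and without LB hens 7, 8 and 16 for DDC-3 (-0.021) and MAOA-3 (0.055). Further sign changes were found with the actin covariate for DDC-3 (-0.015) and MAOA-3 (0.060), in LSL for DDC-3 (-0.041), DDC-5 (0.00054) and MAOA-3 (0.013), and in LB for TPH2 (-0.040), DDC-1 (0.022), DDC-2 (0.037), MAOA-1 (0.037), MAOB-1 (0.065) and COMTD1 (-0.058). The change of the line difference with group size did so with array weights for TH (0.011) and MAOA-3 (-0.045), with quantile normalization for TH (0.0098) and MAOA-3 (-0.0065), and without LB hens 7, 8 and 16 for MAOA-3 (-0.083). It was also turned with the actin covariate for MAOA-3 (-0.058), and with the right side alone for DDC-4 (-0.0041), DDC-5 (-0.025), MAOA-2 (0.034) and MAOB-3 (-0.071). Its change between array sets did so with array weights for DDC-1 (-0.0034), DDC-2 (0.0078) and MAOB-1 (0.00056), without LB hens 7, 8 and 16 for DDC-1 (-0.00044), and with the right side alone for MAOB-1 (0.0089). The side difference did so with array weights for MAOA-1 (-0.014) and MAOA-2 (-0.029), and with quantile normalization for MAOA-2 (-0.022), MAOB-3 (-0.0037) and COMTD1 (-0.0015).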
